A study of Mus musculus with 6 samples.

Results

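Hyaluronan synthesis, binding and turnover was followed through 10 genes: the synthases Has1, Has2 and Has3, the degradation genes Hyal1, Hyal2 and Cemip, the receptors Cd44 and Hmmr, and the matrix partners Vcan and Tnfaip6. Members were chosen by name, as the genes whose Ensembl identifier carried one of these symbols in the GENCODE M21 mouse annotation, and all 10 were found among the 29616 genes of the table. RNA sequencing compared 3 libraries of control mice with 3 of mice that received the synthetic glucocorticoid dexamethasone, in a model of glucocorticoid-induced bone loss. All libraries came from C57BL/6 mice. The treated mice received a daily dose of 0.08 µg/g over 4 weeks, starting at an age of 8 weeks, and the control libraries are labelled only as control. The sample labels call the material bone cells, whereas the methods of the study describe Osteocalcin-positive cells sorted from bones cleared of marrow. The 3 libraries of a group are described as biological replicates, but not whether mice were pooled for a library, and p-values measure only the spread between these libraries. Control libraries 1, 2 and 3 held 83025489, 81186636 and 88354925 reads. Dexamethasone libraries 1, 2 and 3 held 89910728, 75526030 and 72596611 reads.

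Hyaluronan is a long, unsulfated glycosaminoglycan that synthases build at the inner face of the plasma membrane from nucleotide sugars of the cytosol and extrude into the matrix. It is held at the cell surface by receptors such as CD44, organized by versican, link proteins and the inter-alpha-trypsin heavy chains, and cleared by hyaluronidases and by CEMIP. In bone it lies in the pericellular coat of osteoblast lineage and marrow stromal cells, and CD44 is a known surface protein of osteocytes.

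Has2 and Cemip fell with dexamethasone, whereas Vcan and Hmmr rose. Values are normalized counts, which are read counts divided by a size factor per library. A gene was called differentially expressed when its limma adjusted p was under 0.05 and its log2 fold change was 1 or more up or down, on log2(normalized count + 1), among 17442 genes with a mean of at least 10. All 10 members passed this filter. Members and lists were chosen with earlier results of these data known, so that the shares called among them are descriptions only. Of the 10 members, 4 were called, against 22.3% of all tested genes. The members called higher were 2 of 10, Hmmr and Vcan, against 11.7% of tested genes, and the members called lower were 2 of 10, Has2 and Cemip, against 10.6%. By adjusted p alone 7 of 10 members passed, 4 higher and 3 lower, against 72.5% of tested genes. The values of the groups did not overlap for 7 of 10 members, against 74.7% of tested genes, so that these last shares lie near the background. The median log2 fold change was 0.06 over the members and 0.001 over all tested genes, and the latter was -0.113 with all libraries scaled to the same total. These are bulk libraries, in which fewer cells of a type and less RNA per cell cannot be told apart.

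**Figure D1:**
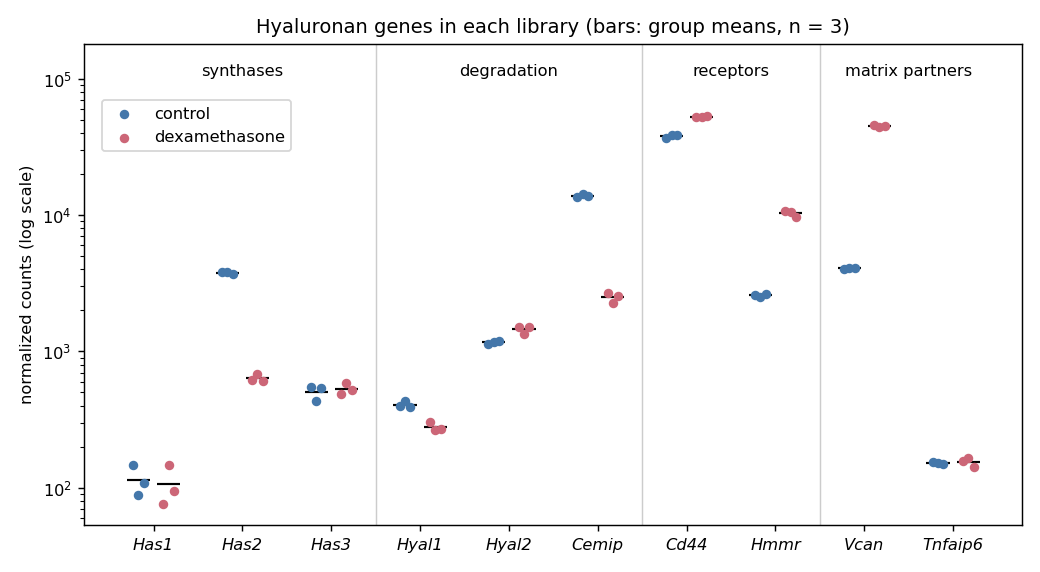
Normalized counts of the 10 members (log scale) in each of the 6 libraries, with control in blue, dexamethasone in red and group means as black bars (n = 3). Has2 and Cemip lie lower and Hmmr and Vcan higher in the dexamethasone libraries, whereas the groups overlap for Has1, Has3 and Tnfaip6.

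Of the 3 synthases, Has2, the main hyaluronan synthase of most connective tissue cells, was the one whose groups separated. Has2 had 3821, 3826 and 3687 normalized counts in control libraries 1 to 3 and 618.1, 685.6 and 610.5 in dexamethasone libraries 1 to 3. All dexamethasone libraries lay far under the lowest control library, and the spread within each group was narrow beside the gap. The group mean of Has2 fell from 3778 ± 78.7 to 638.1 ± 41.4 normalized counts (SD, n = 3 each), 5.92-fold lower. Its log2 fold change was -2.57 with a 95% confidence interval of -2.67 to -2.46 (SE 0.0509, adjusted p = 1.65e-23 by limma). The antisense transcript Has2os overlaps 4.3% of the exon bases of Has2, and the strand setting of the read count is not given in the sources used here.

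Has2os, a noncoding RNA transcribed against Has2, had 137.7, 189.8 and 182.8 normalized counts in the control libraries and 49.6, 41.4 and 53.5 in the dexamethasone libraries. It was lower in each dexamethasone library than in any control library, as was Has2. Its log2 fold change was -1.79 (SE 0.166, adjusted p = 6.42e-10 by limma), a 3.53-fold lower mean. Has2os is uncertain, since Has2 covers 11.18% of its exon bases.

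Has3, a synthase usually credited with shorter chains, had 544.4, 429.6 and 539.6 normalized counts in the control libraries and 489.3, 590.8 and 523.3 in the dexamethasone libraries. The groups overlapped, with control library 2 lowest and dexamethasone library 2 highest. The log2 fold change of 0.09 (95% confidence interval -0.10 to 0.27, adjusted p = 0.385 by limma) was smaller than the spread between libraries, and its sign turned with all libraries scaled to the same total (-0.03). Chtf8, which runs the other way, covers 5.52% of the exon bases of Has3. Has1, a further isoenzyme, was sparse, with 161, 90 and 123 reads in controls and 80, 135 and 81 with dexamethasone. Has1 values of 147.8, 88.1 and 108.1 normalized counts in controls overlapped those of 76.3, 147.2 and 94.2 with dexamethasone. The highest control library and the highest dexamethasone library were nearly level. For Has1 the log2 fold change was -0.14 with a confidence interval from -0.55 to 0.28 (adjusted p = 0.554 by limma), and it was 0.06 without control library 1 and 0.07 without dexamethasone library 1. The interval of Has1 spans changes in both directions.

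Levels of different genes were compared per kilobase of merged exons, from the GENCODE M21 models. On this scale Has2 made up 88.4%, 91.2% and 88.9% of the summed synthase level in the control libraries, and 60.9%, 56.4% and 58.3% in the dexamethasone libraries. Has2 was the most abundant synthase in all 6 libraries, and its share was lower in each dexamethasone library than in any control library. The mean share of Has2 was 89.5% ± 1.5 in controls and 58.5% ± 2.27 with dexamethasone (SD, n = 3 each, exact two-sided permutation p = 0.1, the smallest p that 3 against 3 libraries can give). The share of Has3 was 7.94% ± 0.992 in controls and 32.5% ± 0.626 with dexamethasone (SD, n = 3 each, exact permutation p = 0.1). The share of Has1 was 2.54% ± 0.625 and 8.95% ± 2.19 (SD, n = 3 each, exact permutation p = 0.1). These shares of Has1 and Has3 stood beside overlapping normalized counts of the same genes. The summed synthase level was 996 ± 21.3 normalized counts per kb in controls and 258 ± 25.6 with dexamethasone (SD, n = 3 each, exact permutation p = 0.1).

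**Figure D2:**
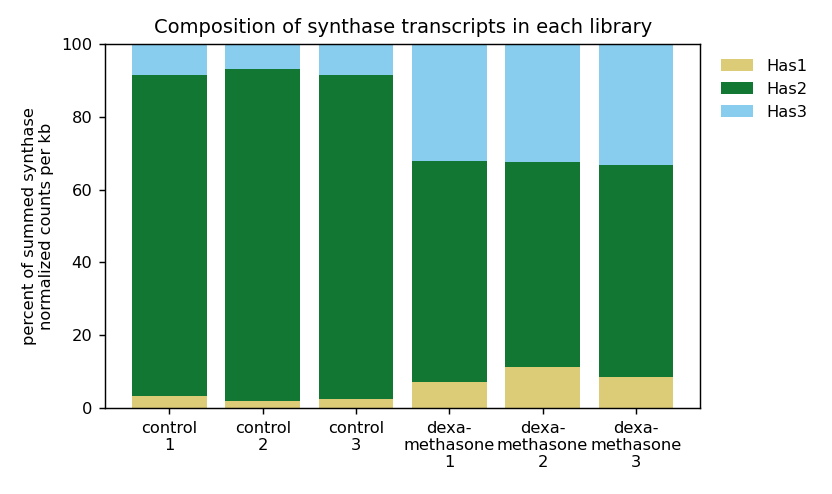
Share of each hyaluronan synthase in the summed normalized counts per kb of Has1, Has2 and Has3, in percent, for each of the 6 libraries. Has2 takes between 88.4% and 91.2% in the control libraries and between 56.4% and 60.9% in the dexamethasone libraries.

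Among the degradation genes, Cemip fell about as much as Has2. Cemip encodes a protein that binds hyaluronan and is needed for its depolymerization by skin fibroblasts. Cemip had 13679, 14213 and 13862 normalized counts in the control libraries and 2700, 2276 and 2550 in the dexamethasone libraries. The groups lay far apart, and every dexamethasone library was under every control library. The mean of Cemip fell from 13918 ± 271.1 to 2509 ± 215.2 normalized counts (SD, n = 3 each), 5.55-fold lower. On the log2 scale the fold change was -2.47 with a confidence interval of -2.57 to -2.38 (SE 0.0462, adjusted p = 4.9e-24 by limma). The log2 ratio of Has2 to Cemip was -1.84, -1.89 and -1.91 in the control libraries and -2.13, -1.73 and -2.06 in the dexamethasone libraries. The ratio overlapped between groups, with a change of -0.09.

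The lysosomal hyaluronidase gene Hyal1 and the gene of the membrane-anchored hyaluronidase Hyal2 lie beside each other on chromosome 9, together with Naa80 and Hyal3. Hyal1 had 394.8, 430.5 and 392.8 normalized counts in the control libraries and 304.3, 264.9 and 269.8 in the dexamethasone libraries. The groups did not overlap, but the log2 fold change of -0.54 (confidence interval -0.72 to -0.36, SE 0.0872, adjusted p = 6.06e-06 by limma) stayed short of the fold required for a call. Hyal1 is uncertain, since Hyal3 and Naa80 on the same strand overlap 51.92% of its exon bases. Hyal2 had 1137, 1166 and 1200 normalized counts in the control libraries and 1521, 1349 and 1517 in the dexamethasone libraries. Hyal2 was higher in each dexamethasone library than in any control library, with dexamethasone library 2 the nearest to the controls. Its log2 fold change of 0.32 (confidence interval 0.21 to 0.44, SE 0.0542, adjusted p = 9.72e-06 by limma) was also short of a call. The log2 ratio of Hyal2 to Hyal1 was 1.52, 1.44 and 1.61 in controls and 2.32, 2.34 and 2.49 with dexamethasone. The ratio was higher in all dexamethasone libraries, by 0.86 in the mean, which restates the opposite changes of Hyal1 and Hyal2.

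Of the receptors, Cd44, which encodes the principal cell surface receptor for hyaluronan, had 36889, 38575 and 38442 normalized counts in the control libraries and 52457, 52517 and 53044 in the dexamethasone libraries. The dexamethasone libraries were close to each other and all above the controls. The mean of Cd44 was 37969 ± 937.5 in controls and 52672 ± 323 with dexamethasone (SD, n = 3 each), a ratio of 1.39. The log2 fold change of 0.47 (confidence interval 0.40 to 0.55, SE 0.0368, adjusted p = 2.4e-11 by limma) passed the adjusted p but not the fold, and it lay between 0.36 and 0.48 over 16 alternative settings.

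Hmmr encodes RHAMM, a hyaluronan-binding protein that in dividing cells also sits on the mitotic spindle. Hmmr had 2603, 2515 and 2624 normalized counts in the control libraries and 10758, 10549 and 9701 in the dexamethasone libraries. All dexamethasone libraries were several times above the controls, with dexamethasone library 3 the lowest of them. The mean of Hmmr rose from 2580 ± 57.9 to 10336 ± 559.8 normalized counts (SD, n = 3 each), 4.01-fold. The log2 fold change was 2.0 with a confidence interval of 1.92 to 2.08 (SE 0.0406, adjusted p = 2.55e-23 by limma).

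Genes of dividing cells moved with Hmmr. Of 12 listed genes of the mitotic and replicating cell (Mki67, Top2a, Ccnb1, Ccna2, Cdk1, Aurka, Aurkb, Bub1, Plk1, Tpx2, Birc5 and Kif11), 12 were called higher. The share called higher over all tested genes was 11.7%. Their log2 fold changes ran from 1.97 for Ccnb1 to 3.02 for Aurkb, with a median of 2.49. Their summed level was 44079, 44806 and 47354 normalized counts in the control libraries and 276559, 273075 and 260720 in the dexamethasone libraries. The sums of the groups lay far apart, and the gene with the highest counts was Mki67, a nuclear protein of cycling cells, with no gene of the list at 0. The log2 ratio of Hmmr to the mean of these genes was 0.01, -0.09 and -0.08 in controls and -0.47, -0.50 and -0.56 with dexamethasone. This ratio was lower in all dexamethasone libraries, a change of -0.46, so that Hmmr rose less than the mean of the 12 genes. The part of the dividing cell genes in the change of Hmmr was not tested.

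Vcan had the largest change among the 10 members. It encodes versican, a large chondroitin sulfate proteoglycan whose end domain binds hyaluronan. Vcan had 4008, 4097 and 4120 normalized counts in the control libraries and 46047, 44260 and 44780 in the dexamethasone libraries. Within each group the libraries lay close together, and the groups were an order of magnitude apart. The mean of Vcan rose from 4075 ± 58.9 to 45029 ± 919.1 normalized counts (SD, n = 3 each), 11.1-fold. Its log2 fold change was 3.47 with a confidence interval of 3.39 to 3.54 (SE 0.0342, adjusted p = 3.68e-29 by limma). The log2 ratio of Vcan to Has2 was 0.07, 0.10 and 0.16 in the control libraries and 6.22, 6.01 and 6.19 in the dexamethasone libraries. This ratio, which is not divided by length, was higher in all dexamethasone libraries, a change of 6.03. It restates the opposite changes of Vcan and Has2, which were paired after their values were seen. The log2 ratio of Vcan to Cd44 was -3.20, -3.23 and -3.22 in controls and -0.19, -0.25 and -0.24 with dexamethasone, a change of 2.99.

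Tnfaip6 encodes TSG-6, a secreted protein that transfers heavy chains of inter-alpha-trypsin inhibitor onto hyaluronan. Tnfaip6 had 154.2, 150.7 and 150.3 normalized counts in the control libraries and 158.3, 164.6 and 141.9 in the dexamethasone libraries. The controls lay inside the range of the dexamethasone libraries. The log2 fold change of 0.03 (confidence interval -0.22 to 0.27, adjusted p = 0.848 by limma) was smaller than the spread between libraries, and its sign turned with all libraries scaled to the same total (-0.09).

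Per kilobase of merged exons, Cd44 was the highest member in both groups, at 5600 ± 138 normalized counts per kb in controls and 7770 ± 47.7 with dexamethasone (SD, n = 3 each). In controls it was followed by Cemip (1140 ± 22.2), Has2 (892 ± 18.6), Hmmr (475 ± 10.7), Hyal2 (355 ± 9.56) and Vcan (282 ± 4.07). The low end of the control order was Hyal1 (108 ± 5.62), Tnfaip6 (88.7 ± 1.27), Has3 (79.1 ± 10.2) and Has1 (25.4 ± 6.73 normalized counts per kb). No neighbours in the control order overlapped over the 3 libraries. The place of Hyal1 is uncertain in both groups, since same-strand genes overlap 51.92% of its exon bases. With dexamethasone Vcan (3110 ± 63.6) and Hmmr (1900 ± 103) came next to Cd44, ahead of Hyal2 (444 ± 29.8), Cemip (205 ± 17.6) and Has2 (151 ± 9.76 normalized counts per kb). Tnfaip6 (90.6 ± 6.87), Has3 (83.8 ± 8.09) and Hyal1 (74.0 ± 5.69) followed, and Has1 was last (23.4 ± 8.15 normalized counts per kb). In that order Tnfaip6 overlapped Has3, and Has3 overlapped Hyal1. Vcan thus stood in place 6 in controls and in place 2 with dexamethasone, and Cemip in places 2 and 5.

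Beyond the members, 39 further hyaluronan genes were listed, of which 35 were in the table and 27 were tested. Of these 27 genes, 3 were called higher (Layn, Itih2 and Ezr), 5 lower (Hyal3, Hexa, Hapln1, Itih3 and Ptx3), and 19 were not called. The share called is 8 of 27, beside 22.3% of all tested genes, and the median log2 fold change was -0.24 beside 0.001. By adjusted p alone 8 were higher and 12 lower, beside 72.5% of all tested genes, and the values of the groups did not overlap for 20 of 27, beside 74.7%, so that both shares lie near the background. Hyal4, Hyal5, Spam1 and Ambp were not analysed here.

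The precursor genes make the nucleotide sugars from which hyaluronan is built, and of 7 tested none was called by limma, edgeR or DESeq2. By limma, 22.3% of all tested genes were called. At an unadjusted p under 0.05 each tool had 2 of the 7 higher and 2 lower. Gfpt1, the first enzyme of the hexosamine pathway with the highest counts among them, had 21253, 21540 and 22080 normalized counts in controls and 16417, 15633 and 15823 with dexamethasone. It was lower in every dexamethasone library, with a log2 fold change of -0.44 (adjusted p = 3.86e-11 by limma). Ugdh, which oxidizes UDP-glucose to UDP-glucuronic acid, had 6401, 6566 and 6305 normalized counts in controls and 10249, 10698 and 10324 with dexamethasone, a log2 fold change of 0.70 (adjusted p = 4.02e-15 by limma). Uap1, which forms UDP-N-acetylglucosamine, had a log2 fold change of 0.68 (adjusted p = 1.8e-14 by limma), and Ugp2, which forms UDP-glucose, one of -0.54 (adjusted p = 4.93e-13 by limma). The groups separated for each of these 4 genes, upward for Ugdh and Uap1 and downward for Gfpt1 and Ugp2, all short of the fold required for a call. Gnpnat1, at -0.31, is uncertain, since Styx on the opposite strand overlaps 81.9% of its exon bases.

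Of the 5 tested genes of other degradation steps, 2 were called lower by limma, beside 10.6% of all tested genes. None was higher by limma, edgeR or DESeq2 even at an unadjusted p under 0.05. Hexa, a subunit of the lysosomal hexosaminidase that trims hyaluronan fragments, had 27815, 30258 and 28466 normalized counts in controls and 12476, 11570 and 12562 with dexamethasone. The groups of Hexa lay apart, with a log2 fold change of -1.24 (SE 0.0398, adjusted p = 3.32e-19 by limma), and Tmem202 on the opposite strand overlaps 12.78% of its exon bases. Hyal3, a further hyaluronidase-family gene, had 29.4, 25.4 and 32.5 normalized counts in controls and 10.5, 17.4 and 10.5 with dexamethasone. Hyal3 was lower in all dexamethasone libraries, but at low counts, and its log2 fold change of -1.16 (adjusted p = 0.00222 by limma) was -0.96 with a pseudocount of 5. Cemip2, a transmembrane hyaluronidase, had 17788, 18767 and 17914 normalized counts in controls and 9466, 8906 and 9159 with dexamethasone. The groups of Cemip2 lay well apart, but the log2 fold change of -0.98 (adjusted p = 5.62e-18 by limma) was -1.10 with all libraries scaled to the same total, past the fold required. Gusb, the lysosomal beta-glucuronidase, had a log2 fold change of 0.01 (adjusted p = 0.805 by limma), but was lower by adjusted p with all libraries scaled to the same total (-0.10, adjusted p = 0.0058) and after quantile normalization (-0.2, adjusted p = 7.06e-06).

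Of 5 tested further receptors, Layn was called higher, beside 11.7% of all tested genes. None was called lower by limma, edgeR or DESeq2, beside 10.6% by limma, with 2 lower at an unadjusted p under 0.05. Layn encodes layilin, a C-type lectin receptor for hyaluronan, and had 1611, 1762 and 1655 normalized counts in controls and 6031, 5750 and 5924 with dexamethasone. The groups were well separated, at a log2 fold change of 1.82 (SE 0.042, adjusted p = 3.77e-22 by limma). Tlr2, a pattern receptor that has been linked to hyaluronan fragments, had a log2 fold change of -0.95 (adjusted p = 1.43e-13 by limma), which was -1.07 with all libraries scaled to the same total. Tlr4, its relative, had one of 0.62 (adjusted p = 1.92e-13 by limma), and Stab2, a clearance receptor of sinusoidal endothelium, one of -0.84 (adjusted p = 2.18e-06 by limma). Lyve1, the lymphatic hyaluronan receptor, had 0, 1 and 1 reads in controls and 9, 2 and 5 with dexamethasone, and was too sparse to be tested.

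Of 7 tested link proteins and matrix partners, 1 was called higher and 3 lower, beside 11.7% and 10.6% of all tested genes. Ptx3 encodes pentraxin 3, which crosslinks hyaluronan bound to heavy chains. Ptx3 had 17183, 16780 and 17223 normalized counts in controls and 1713, 1539 and 1535 with dexamethasone. The dexamethasone libraries lay an order of magnitude below the controls, at a log2 fold change of -3.42 (SE 0.0414, adjusted p = 2.12e-27 by limma), 10.7-fold lower. Hapln1, the link protein that locks proteoglycans such as versican onto hyaluronan, had 413.1, 397.3 and 406.9 normalized counts in controls and 141.2, 177.7 and 138.4 with dexamethasone. It was lower in all dexamethasone libraries, with a log2 fold change of -1.42 (SE 0.105, adjusted p = 9.08e-12 by limma), opposite in direction to Vcan.

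The heavy chain genes of inter-alpha-trypsin inhibitor moved in different directions. Itih2 had 13.8, 26.4 and 21.1 normalized counts in controls and 283.3, 306.3 and 319.8 with dexamethasone. It was low in all controls and higher throughout with dexamethasone, at a log2 fold change of 3.87 (SE 0.193, adjusted p = 3.26e-15 by limma). Itih3 had 27, 19 and 33 reads in controls and 3, 1 and 1 reads with dexamethasone. With so few reads, Itih3 is given as a ratio of control to dexamethasone of 13.7, with a 95% counting interval from 5.65 to 43.5 that covers counting error only (log2 fold change -3.25, adjusted p = 1.47e-06 by limma). Itih4 overlapped between the groups, with a log2 fold change of -0.24 (adjusted p = 0.624 by limma), and Itih1 had at most 3 reads in every library.

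Of the 3 ezrin, radixin and moesin genes, whose proteins tie the tail of CD44 to the actin cytoskeleton, Ezr was called higher, beside 11.7% of all tested genes. Ezr had 6137, 6407 and 6190 normalized counts in controls and 24447, 21686 and 22642 with dexamethasone. The groups lay far apart, at a log2 fold change of 1.87 (SE 0.04, adjusted p = 7e-23 by limma). Msn, with the highest counts of these genes, had a log2 fold change of 0.65 (adjusted p = 3.62e-13 by limma), and Rdx one of 0.52 (adjusted p = 1.88e-12 by limma).

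Of the proteases that cleave versican, 4 were tested and 3 were called lower, beside 10.6% of all tested genes. Adamts5, a major versican- and aggrecan-cleaving enzyme, had 19069, 18773 and 20076 normalized counts in controls and 3060, 2838 and 2919 with dexamethasone. All dexamethasone libraries of Adamts5 were far under the controls, at a log2 fold change of -2.72 (SE 0.0382, adjusted p = 2.44e-26 by limma). Adamts9, with 11.99% of its exon bases shared with A730049H05Rik and Gm15737, which run the other way, fell by 1.91 (adjusted p = 7.76e-21 by limma), and Adamts4 fell by 1.21 on the log2 scale (adjusted p = 3.17e-16 by limma). Adamts1, with the highest counts of them, overlapped between the groups, at a log2 fold change of -0.09 (adjusted p = 0.0463 by limma). The log2 ratio of Vcan to Adamts5 was -2.25, -2.20 and -2.28 in controls and 3.91, 3.96 and 3.94 with dexamethasone. The ratio, also not divided by length, was higher in all dexamethasone libraries, a change of 6.18. It restates the opposite changes of Vcan and Adamts5, which were paired after their values were seen. Adamts15 and Adamts20 were not analysed here.

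**Figure D3:**
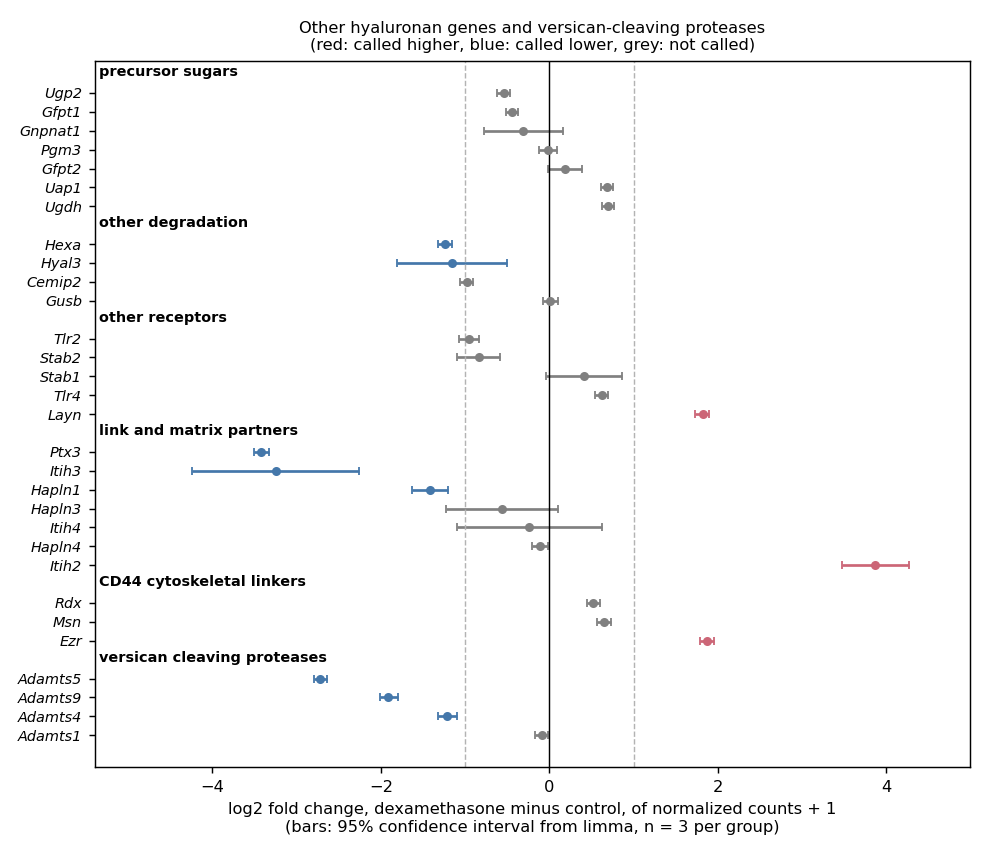
Log2 fold change (dexamethasone minus control, of normalized counts + 1) of tested further hyaluronan genes and versican-cleaving proteases, with 95% confidence intervals from limma (n = 3 per group) and dashed lines at the fold required for a call. Called genes are red when higher, such as Itih2 at 3.87, and blue when lower, such as Ptx3 at -3.42, and grey genes were not called.

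Genes known to answer to glucocorticoids separated the groups as labelled, with 6 of 6 listed genes called higher, beside 11.7% of all tested genes. Fkbp5, a chaperone of the glucocorticoid receptor, rose by 4.41 on the log2 scale (adjusted p = 1.3e-29 by limma), and Sgk1, a kinase, by 4.25 (adjusted p = 1.26e-29 by limma). Tsc22d3, Dusp1 and Per1 rose by 1.65, 1.64 and 1.49 on the log2 scale. Zbtb16 had 0 reads in all 3 controls and was at least 15.4-fold higher with dexamethasone, taking 3 reads per library as the limit that a count of 0 allows.

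Osteoblast genes were checked against the sorted cells that the methods describe. Osteocalcin (Bglap), by which the cells were sorted, had 98.2, 101.8 and 122.1 normalized counts in controls and 9.54, 12.0 and 15.1 with dexamethasone. It was thus low in all libraries and lowest with dexamethasone, and it shares sequence with its near-identical copy Bglap2, so that both are uncertain. Of 10 osteoblast genes, 8 were called lower (Bglap, Bglap2, Sp7, Runx2, Alpl, Col1a1, Col1a2 and Ibsp) and 2 higher (Spp1 and Dmp1), beside 10.6% lower and 11.7% higher of all tested genes. Alkaline phosphatase (Alpl) fell by 2.45 on the log2 scale (adjusted p = 6.67e-15 by limma), and Col1a2, a chain of type I collagen, fell by 1.05 (adjusted p = 1.13e-12 by limma), a call that was lost after quantile normalization. Spp1, which encodes osteopontin, also a ligand of CD44, had 32469, 34314 and 34003 normalized counts in controls and 1291250, 1246067 and 1301705 with dexamethasone. Spp1 was far higher in all dexamethasone libraries, at a log2 fold change of 5.25 (SE 0.049, adjusted p = 1.43e-29 by limma), and Dmp1, a phosphoprotein of osteocytes, rose by 7.16 (adjusted p = 2.12e-28 by limma). The summed level of the list was 2008940, 2116301 and 2137601 normalized counts in controls and 2142462, 2010523 and 2058508 with dexamethasone. These sums overlapped, but with Col1a2 at 51.0% in controls and Spp1 at 61.8% with dexamethasone, so that level sums hide an exchange of genes.

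Markers of other cells also differed between the groups, and their part in the changes of Has2, Cemip, Hmmr and Vcan was not tested. The counts called in each list of markers stand beside 11.7% higher and 10.6% lower of all tested genes. Of 3 tested cartilage genes, Sox9 and Col2a1 were called higher, at log2 fold changes of 1.92 and 1.90, and Comp lower, at -1.23. The sum of the 7 cartilage genes was 5955, 6408 and 6413 normalized counts in controls and 24973, 22361 and 22116 with dexamethasone, mostly Sox9. The sum was higher in all dexamethasone libraries, while the defining cartilage genes Matn1 and Col9a1 had at most 3 reads and Acan at most 6 reads in every library. Of 5 tested smooth muscle and pericyte genes, Acta2, a contractile actin, was called lower at a log2 fold change of -3.54. The sum of the 6 genes was 148092, 155942 and 153722 normalized counts in controls and 23354, 21898 and 22973 with dexamethasone. Acta2 fell from a mean of 144918 to 12449 normalized counts, and none of the other 4 tested genes was called. Of these, Myh11, a smooth muscle myosin, was at -0.89 (adjusted p = 0.0102 by limma) and Tagln at 0.06 (adjusted p = 0.787 by limma), both with overlapping groups. The pericyte genes Cspg4, at 0.43 (adjusted p = 5.64e-10 by limma), and Rgs5, at 0.72 (adjusted p = 0.0511 by limma), were higher in all dexamethasone libraries, opposite to the sum. Of 3 tested fibroblast and tendon genes, Scx, a tendon transcription factor, was called lower at -2.99, whereas Mkx, a further tendon transcription factor, had 0.44 (adjusted p = 6.55e-07 by limma) and was not called. The sum of the list was 2006, 2358 and 2144 normalized counts in controls and 1404, 1429 and 1490 with dexamethasone, with Scx highest in controls and Mkx with dexamethasone.

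Endothelial genes were few and low. Of 4 tested, Esam, an adhesion molecule of endothelial junctions, was called higher at a log2 fold change of 1.2. Pecam1, at 0.74 (adjusted p = 0.0419 by limma), and Kdr, at 0.25 (adjusted p = 0.00812 by limma), were also higher in all dexamethasone libraries, short of a call. Tek, at -0.75 (adjusted p = 0.146 by limma), overlapped. It passed the filter through the controls, at a mean of 12.6 normalized counts, beside 8.11 with dexamethasone. The sum of the endothelial list was 383.7, 384.6 and 414.8 normalized counts in controls and 509.4, 485.1 and 465.1 with dexamethasone, most of it Kdr in both groups. The sums did not overlap, while the defining genes Cdh5 and Tie1 had at most 3 reads in every library. Of 5 tested pan-hematopoietic genes, Cd53 and Itgb2 were called higher at log2 fold changes of 4.11 and 3.20. Laptm5 and Coro1a were called lower at -1.49 and -1.77. Coro1a had an adjusted p of 0.0634 in limma without the mean-variance trend and a log2 fold change of -1.01 without dexamethasone library 3. Both Laptm5 and Coro1a passed the filter through the controls, at means of 19.2 and 20.4 normalized counts, beside 6.41 and 6.79 with dexamethasone. The sum of the list was 6701, 6959 and 6857 normalized counts in controls and 8177, 8100 and 8595 with dexamethasone, most of it Arhgdib in both groups. The sums separated, and Ptprc, which defines hematopoietic cells, had 2 to 5 reads in each library.

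Of 4 tested macrophage genes, Cd68 and Mrc1 were called higher at log2 fold changes of 1.78 and 2.24, and Lyz2 lower at -1.5. Csf1r was lower in all dexamethasone libraries, at -0.67 (adjusted p = 0.0125 by limma), short of a call. Mrc1 passed the filter through the dexamethasone libraries, at a mean of 17.3 normalized counts, beside 3.15 in controls. Fcgr1 had at most 3 reads in every library. The macrophage sum was 1229, 1206 and 1221 normalized counts in controls and 1072, 898.2 and 1008 with dexamethasone, lower with dexamethasone, with Lyz2 highest in controls and Cd68 with dexamethasone. None of 5 tested neutrophil genes was called by limma, edgeR or DESeq2, with S100a9 highest in counts and 1 gene, S100a8, under an unadjusted p of 0.05 with each tool. S100a8 was higher in all dexamethasone libraries, at 0.87 (adjusted p = 8.74e-08 by limma), short of the fold required. The neutrophil sum was 991.5, 968.7 and 940.3 normalized counts in controls and 1108, 1049 and 1217 with dexamethasone. Of 3 tested synovial lining genes, Prg4, which encodes lubricin, was called higher at a log2 fold change of 1.06, which was 0.95 with all libraries scaled to the same total and 0.89 without dexamethasone library 2. Clic5 was lower in all dexamethasone libraries, at -0.73 (adjusted p = 0.0474 by limma), short of a call and at few reads. Htra4, at -0.58 and also at few reads, did not pass (adjusted p = 0.101 by limma). The synovial sum overlapped between the groups, at 95.5, 78.3 and 72.9 normalized counts in controls and 112.6, 124.3 and 80.2 with dexamethasone. Of 2 tested adipocyte genes, Fabp4, a fatty acid carrier, had 3, 2 and 2 reads in controls and 4082 reads in all with dexamethasone, a ratio of 671 with a counting interval from 325 to 1670. Pparg, the other tested gene, was level, at means of 21.8 in controls and 21.6 with dexamethasone (adjusted p = 0.997 by limma). The adipocyte sum was 30.3, 28.4 and 36.0 normalized counts in controls and 1438, 1437 and 1545 with dexamethasone. Pparg was highest in controls and Fabp4 with dexamethasone, so that the rise of the sum was that of Fabp4. Adipoq had 9, 3 and 1 reads in controls and 2, 1 and 1 with dexamethasone. Plin1 had 0, 2 and 6 reads in controls and 2, 0 and 1 with dexamethasone. The adipocyte genes Cidec and Lep had at most 3 reads in every library.

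Among all tested genes, the pattern most like that of Has2 over the 6 libraries was found by the Euclidean distance between log2 values less the control mean. The nearest were Gm48908, at a distance of 0.0705, Setbp1 at 0.0958 and Insc at 0.157. Their log2 fold changes were -2.57, -2.55 and -2.49, and Gm48908 was near 110.3 normalized counts in controls and 17.7 with dexamethasone.

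Promoter sequences are shown for Hmmr, which moved with the dividing cell genes, and for Cemip and Vcan, the members with the most marked fall and rise among those with an entry. RefSeq sequences of mouse build GRCm38.p6 held the 250 bases upstream of the gene start for 8 of the 10 members, all but Has2 and Has3. Both strands were searched for CCAAT, a box common in promoters of cell cycle genes that reads ATTGG on the other strand, for TATAAA, the core of the TATA box, and for TGTTCT, a half-site of the glucocorticoid response element. No match of one motif overlapped a match of another in the sequences shown. Of 32851 such windows, 33.8% held at least 1 CCAAT, 10.1% at least 2 and 0.213% at least 5, while 12.4% held TATAAA and 16.1% TGTTCT. The window of Hmmr held 5 CCAAT matches, starting 172, 129, 96, 47 and 20 bases upstream of the gene start, and none of the other motifs. Of the 12 dividing cell genes, 9 had an entry, and 8 of these held at least 1 CCAAT and 6 at least 2. Cemip held TATAAA, starting 29 bases upstream, and Vcan held 1 CCAAT, starting 103 bases upstream. Of the members that were not called, Has1 and Hyal1 held 1 CCAAT each and Tnfaip6 held 2, so that 5 of the 8 members with an entry held the box. None of the 8 members with an entry held TGTTCT in this window. A match is a description of the letters and not a shown binding site. The sequences read 5′ to 3′ on the strand of the gene, which is the minus strand for all 3, and lie directly upstream of its start, with the matches in capitals. They cover chr11:40733438-40733687 for Hmmr, chr7:84086506-84086605 for Cemip and chr13:89742513-89742622 for Vcan.
Hmmr: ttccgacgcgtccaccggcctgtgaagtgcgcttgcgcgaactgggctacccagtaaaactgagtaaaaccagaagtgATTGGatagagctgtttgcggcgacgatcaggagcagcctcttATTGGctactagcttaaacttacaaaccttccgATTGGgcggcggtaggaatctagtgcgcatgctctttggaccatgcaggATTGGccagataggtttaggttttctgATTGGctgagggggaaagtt
Cemip: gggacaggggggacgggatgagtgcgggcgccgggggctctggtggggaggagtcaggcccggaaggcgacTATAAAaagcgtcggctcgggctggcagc
Vcan: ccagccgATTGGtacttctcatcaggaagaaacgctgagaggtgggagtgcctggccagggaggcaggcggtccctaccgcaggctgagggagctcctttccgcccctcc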

How the data were processed

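Libraries were prepared with a stranded mRNA kit. The authors aligned and counted reads per gene with STAR 2.7.10a and divided the counts by size factors from DESeq2 1.36.0, and the deposited signal is these normalized counts. Their notes list GRCm39, whereas GENCODE M21 (GRCm38) was used here for symbols (28087 of 29616 genes matched), exon lengths and overlaps. Whole reads were recovered for 100% of values (tolerance 0.01 reads), with the totals given for each library. Replicates differed by more than sampling noise (chi-square per degree of freedom 3.271 to 26.146 in 6 pairs within groups).

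Log2(normalized count + 1) of genes with a mean of at least 10 was compared with limma 3.58.1 in R 4.3.3, with the mean-variance trend, no block and Benjamini-Hochberg adjustment over all 17442 genes. The mean was that over the 6 libraries, so that Itih3, Laptm5, Coro1a, Tek, Mrc1, Fabp4 and Zbtb16 passed through the group with the higher values. Cut-offs were those of the study's methods. Synthase shares were compared with exact two-sided permutation tests. The 6 ratios between genes were all paired after the values of their genes were seen, so that their planned exact tests are not quoted. The added 1 makes fold changes of sparse genes smaller. Counting intervals and the limit of 3 reads for a count of 0 cover counting error only. Columns were matched to samples by treatment and number.

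Named were the 10 members, of the other lists each called gene and otherwise the gene of each group with the highest mean over the 6 libraries, and the 3 genes nearest to Has2. Ugdh, Uap1, Ugp2, Gnpnat1, Pgm3, Cemip2, Gusb, Tlr2, Tlr4, Stab2, Lyve1, Itih1, Itih4, Rdx, Csf1r, S100a8, Cspg4, Myh11, Tagln, Rgs5, Pecam1, Tek, Clic5, Htra4, Pparg and the marker genes near 0 were named after their values were seen. Members and lists were chosen with earlier results of these data known, and the lists of versican-binding proteins and chondroitin sulfate enzymes were added after the members' values were seen. Of the other lists, 1 gene is counted but not reported here.

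Alternatives were pseudocounts of 0.5 and 5, no filter, a mean of at least 100, scaling to the same total, quantile normalization, no trend, the count models of edgeR 4.0.16 and DESeq2 1.42.0 fitted to recovered reads, a replicate block, each library left out, adjusted p alone, and synthase shares not divided by length. The fits were tested on simulated data with far fewer changed genes than were called here. That setting differs from these libraries, so it does not test the normalization.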

Additional observations from a re-analysis of the deposited data

How the results depend on the processing

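The calls of Has2, Cemip, Hmmr and Vcan and the lack of a call for the other 6 members held under the 16 alternatives that kept the call rule, and 154 of 160 member values kept direction and side of the threshold. Log2 fold changes ranged from -2.68 to -2.53 for Has2, -2.67 to -2.41 for Cemip, 1.82 to 2.05 for Hmmr and 3.35 to 3.48 for Vcan. The other 6 values changed sign, none of them called: Has3 was -0.0268 and Tnfaip6 -0.0861 at the same total, and leaving out 1 library gave -0.4 to 0.0707 for Has1, -0.0245 to 0.15 for Has3 and -0.0175 to 0.089 for Tnfaip6. Among the further genes, leaving out 1 library gave -0.0434 to 0.0243 for Pgm3 (28.3% of its exon bases shared with Dop1a), -0.0301 to 0.045 for Gusb and -0.51 to 0.22 for Itih4. Gusb was -0.2 after quantile normalization, -0.1 at the same total and -0.0134 by edgeR, S100a9 was -0.019 at the same total, and Arhgdib was -0.0569 after quantile normalization. The cause was not tested. Cemip2 passed the fold after quantile normalization (-1.2), at the same total (-1.1), with edgeR (-1.01) and without dexamethasone library 1 (-1.01), and Tlr2 at the same total (-1.07) and after quantile normalization (-1.05). Calls were lost for Hyal3 with a pseudocount of 5, for Col1a2 after quantile normalization, for Coro1a without the trend, and for Prg4 with a pseudocount of 5, at the same total, without control library 3 (0.98) and without dexamethasone library 2 (0.89). Fbln2 lost its call at the same total (0.94) and after quantile normalization (0.99).

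A mean of at least 100 left 2170 genes called over the table (1350 higher, 820 lower) and 3 further hyaluronan genes called lower, with fewer genes tested. By adjusted p alone the table gave 12645 genes (6497 higher, 6148 lower), the members 7 (4 higher), and the further hyaluronan genes 20 (8 higher, 12 lower). The Has2 share was 85.9% in controls and 50.0% with dexamethasone when not divided by length. At the same total 45.1% of called genes were higher (1775, and 2163 lower), beside 52.3%. On the recovered reads edgeR called 3944 genes and DESeq2 3870, of which 3831 and 3814 were among the 3894 of limma. The replicate block gave 3897 called genes (2035 higher, 1862 lower), 3891 of them shared, and changed no member's call. Libraries of the same number did not deviate together (correlations of -0.1, -0.105 and -0.02). With 3 libraries a group this cannot exclude a pairing, which the labels do not state. Depth limits Hyal3, Itih3, Itih4 and Lyve1, with few reads per library. With 3 libraries a group, exact tests of shares cannot go below 0.1.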

Other observations

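Versican carries chondroitin sulfate chains, and 19 genes of chain synthesis and sulfation were listed, of which 18 were in the table and 16 were tested. Of these, 3 were called higher (Csgalnact1, Chst3 and Chst11) and none lower by limma, edgeR or DESeq2, beside 11.7% higher and 10.6% lower of all tested genes, and by adjusted p alone 10 were higher and 3 lower (at an unadjusted p under 0.05, 4 lower by limma and 5 by edgeR and DESeq2), beside 72.5% of all tested genes in either direction. Csgalnact1, which starts the chondroitin chain, had 45.0, 34.2 and 25.5 normalized counts in controls and 305.2, 330.3 and 355.8 with dexamethasone. It was higher in all dexamethasone libraries, at a log2 fold change of 3.24 (SE 0.169, adjusted p = 8.54e-15 by limma). Chst3, a chondroitin 6-O-sulfotransferase, had 123.9, 101.8 and 116.9 normalized counts in controls and 842.3, 764.1 and 809.3 with dexamethasone, a log2 fold change of 2.81 (adjusted p = 7.23e-19 by limma). Chst11, a chondroitin 4-O-sulfotransferase, had 1607, 1667 and 1636 normalized counts in controls and 5845, 5368 and 5433 with dexamethasone, a log2 fold change of 1.76 (adjusted p = 7.04e-22 by limma). The groups of Chst3 and Chst11 did not overlap either. Chpf, a chondroitin polymerizing factor, had a log2 fold change of 0.53 (adjusted p = 6.35e-12 by limma), and the median of the list was 0.12.

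Of 6 matrix proteins known to bind versican, 5 were tested, 1 was called higher and 2 lower, beside 11.7% higher and 10.6% lower of all tested genes. Fbln2, a fibulin, had 44834, 48282 and 46873 normalized counts in controls and 103588, 92652 and 94067 with dexamethasone, a log2 fold change of 1.05 (adjusted p = 1.47e-16 by limma) that lost its call at 0.94 with all libraries scaled to the same total and at 0.99 after quantile normalization. Fbn2, a fibrillin, had 17883, 18078 and 19208 normalized counts in controls and 2734, 2522 and 2526 with dexamethasone, a log2 fold change of -2.83 (adjusted p = 2.49e-26 by limma). Tnc, which encodes tenascin-C, had 148948, 153137 and 158037 normalized counts in controls and 43482, 39214 and 39529 with dexamethasone, a log2 fold change of -1.91 (adjusted p = 5.06e-22 by limma). Fbln2 was higher and Fbn2 and Tnc lower in every dexamethasone library.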
